A study of Mus musculus with 24 samples.

Results

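Gene desert peaks were accessible regions of germinal center (GC) B cells that lay far from any annotated transcription start site (TSS). They were autosomal ATAC-seq peaks that overlapped no GENCODE gene body and had their nearest annotated TSS more than 100 kb away. The distance to the other end of a gene was not limited, and a desert peak could lie as near as 2298 bp to one (Parm1). They numbered 265 of the 65483 consensus peaks, or 0.405%. The rule used positions only and no accessibility value. ATAC-seq uses a transposase that cuts open DNA and leaves sequencing adapters there, so that the number of fragments over a peak measures how accessible it is. GC B cells were sorted from the spleens of mice killed 10 days after immunization with sheep red blood cells (SRBC), with 1 library per mouse. All 17 mice were Cg1Cre+/-, which places a Cre recombinase at the Ighg1 locus and deletes floxed alleles in GC B cells. There were 4 mice with Cg1Cre+/- alone (WT), 4 with Crebbp fl/+ (C), 4 with Kmt2d fl/+ (K) and 5 with Crebbp fl/+ and Kmt2d fl/+ (CK), so that each mutant genotype lost 1 copy of the floxed gene or genes and kept the other. The comparisons asked how heterozygous loss of each coactivator, alone or combined, changed accessibility.

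Gene deserts are long stretches of DNA without genes, and some of them hold enhancers that act on a gene at the far end of the stretch or beyond its nearest neighbor. The desert downstream of Myc, which holds enhancers used by blood cells, is a well-known case. CREBBP acetylates histones at active enhancers and KMT2D adds the H3K4 methylation that primes them, so peaks far from promoters belong to the kind of element on which both act. A peak in a desert is named here by its position and by the protein-coding genes next to it, which says nothing about which gene it controls.

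Depth ran from 17483706 to 21857738 peak fragments per library. Peaks within 1 kb of a TSS of 7 of 7 GC B-cell markers were present, with means between 31.1 and 138 TMM-scaled counts per 1000000 fragments (CPM), whereas the defining T-cell genes Cd3e, Cd3g, Cd4, Cd8a and Bcl11b had no such peak and 1 of 6 T-cell markers, Tcf7, did. Of 5 myeloid markers 3 had a peak, the highest at 13.7 CPM. Peaks at genes used as markers of other cells were also open, with Prdm1 at 89.9 CPM and Sdc1 at 35.3 CPM among 3 plasma-cell markers, all 4 naive B-cell markers between 1.04 and 69.4 CPM, and the erythroid gene Klf1 at 47.9 CPM, while Gata1 and Hbb-bs had no such peak. The study described female mice, but 9 of the 17 libraries, from all 4 genotypes, carried fragments from the Y chromosome and 8 did not. These 9 were 2 of 4 WT, 2 of 4 C, 3 of 4 K and 2 of 5 CK mice. In bulk libraries, fewer cells with a peak open and less accessibility in each cell cannot be told apart.

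The 265 peaks fell into 117 intervals between annotated genes and were unevenly spread, with 47 (17.7%) on chromosome 4, 31 (11.7%) on chromosome 8 and 23 on chromosome 6. Their distance to the nearest annotated TSS ran from 100037 to 445823 bp with a median of 131228 bp, and 35 peaks lay over 200 kb away. The peak closest to the limit on its other side was 99859 bp from a TSS. The nearest annotated TSS was that of a protein-coding gene for 65 peaks, of a lincRNA for 68, of a pseudogene for 78 and of a microRNA for 21. Measured to the TSSs of protein-coding genes alone the distances were larger, with a median of 243127 bp and 31 peaks more than 500 kb away. The 265 peaks had 122 different nearest protein-coding genes. Most of these genes (76) had 1 such peak, while 16 genes had 5 or more and together took 112 peaks. Nrp1, a receptor for semaphorins and VEGF, was first with 13 peaks, followed by Tox, an HMG-box factor, with 10.

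Sequence is shown for 8 of the peaks: 5 that lost and 2 that gained accessibility in the comparisons given further on, and the Lpin1 peak, which held the most fragments of all desert peaks and was not called. Each run is the central 300 bases of the peak, plus strand, 5′ to 3′, from the RefSeq GRCm38.p6 genome (mm10), and capitals mark matches to any of 11 motifs searched on both strands. The windows were chr9:51507606-51507905 beyond 1810046K07Rik, chr7:56628107-56628406 between Oca2 and Gabrg3, chr1:184173756-184174055 beyond Dusp10, chr15:62457493-62457792 in the Myc desert, chr16:5537602-5537901 between Eef2kmt and Rbfox1, chr12:92823281-92823580 between Sel1l and Flrt2, chr6:107771428-107771727 between Lrrn1 and Setmar, and chr12:16384377-16384676 beyond Lpin1.
peak beyond 1810046K07Rik: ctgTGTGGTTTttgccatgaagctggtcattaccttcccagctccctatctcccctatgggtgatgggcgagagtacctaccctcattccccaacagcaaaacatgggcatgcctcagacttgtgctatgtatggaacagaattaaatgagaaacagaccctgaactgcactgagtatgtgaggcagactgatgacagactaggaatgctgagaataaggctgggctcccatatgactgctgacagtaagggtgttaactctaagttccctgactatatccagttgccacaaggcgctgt
peak between Oca2 and Gabrg3: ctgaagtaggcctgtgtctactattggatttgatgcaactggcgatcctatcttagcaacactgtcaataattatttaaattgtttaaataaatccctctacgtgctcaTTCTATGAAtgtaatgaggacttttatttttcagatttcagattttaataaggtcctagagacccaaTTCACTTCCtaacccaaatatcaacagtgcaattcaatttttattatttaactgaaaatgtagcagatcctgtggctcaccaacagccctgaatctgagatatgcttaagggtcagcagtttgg
Dusp10 desert peak: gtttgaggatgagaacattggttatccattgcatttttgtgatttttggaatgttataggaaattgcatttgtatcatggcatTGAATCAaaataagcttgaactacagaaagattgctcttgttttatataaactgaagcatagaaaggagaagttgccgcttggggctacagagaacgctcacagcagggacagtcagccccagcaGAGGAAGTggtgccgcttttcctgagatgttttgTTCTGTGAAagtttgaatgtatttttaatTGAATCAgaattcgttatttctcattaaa
Myc desert peak: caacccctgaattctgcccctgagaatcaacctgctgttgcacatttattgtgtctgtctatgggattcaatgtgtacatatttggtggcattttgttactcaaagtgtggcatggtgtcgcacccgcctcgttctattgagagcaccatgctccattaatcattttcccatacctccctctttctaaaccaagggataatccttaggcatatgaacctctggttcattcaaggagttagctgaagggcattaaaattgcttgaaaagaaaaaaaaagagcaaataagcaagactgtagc
Eef2kmt-Rbfox1 desert peak: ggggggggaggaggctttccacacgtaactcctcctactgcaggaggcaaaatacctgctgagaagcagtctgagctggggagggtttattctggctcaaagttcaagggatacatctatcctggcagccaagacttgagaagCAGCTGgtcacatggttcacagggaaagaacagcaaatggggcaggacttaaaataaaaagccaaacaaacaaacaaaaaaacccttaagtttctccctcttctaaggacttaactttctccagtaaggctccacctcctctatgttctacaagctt
Sel1l-Flrt2 desert peak: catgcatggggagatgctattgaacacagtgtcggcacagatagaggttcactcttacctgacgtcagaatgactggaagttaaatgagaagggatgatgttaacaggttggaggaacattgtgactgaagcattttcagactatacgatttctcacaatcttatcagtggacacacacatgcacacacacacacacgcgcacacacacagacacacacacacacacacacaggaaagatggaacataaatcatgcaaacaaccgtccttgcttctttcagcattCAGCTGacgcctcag
Lrrn1-Setmar desert peak: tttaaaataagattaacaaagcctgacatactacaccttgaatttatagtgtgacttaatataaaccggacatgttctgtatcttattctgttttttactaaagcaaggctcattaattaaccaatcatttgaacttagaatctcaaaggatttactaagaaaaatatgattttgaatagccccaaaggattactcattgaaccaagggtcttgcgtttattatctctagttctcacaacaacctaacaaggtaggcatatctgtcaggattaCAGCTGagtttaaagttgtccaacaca
Lpin1 desert peak: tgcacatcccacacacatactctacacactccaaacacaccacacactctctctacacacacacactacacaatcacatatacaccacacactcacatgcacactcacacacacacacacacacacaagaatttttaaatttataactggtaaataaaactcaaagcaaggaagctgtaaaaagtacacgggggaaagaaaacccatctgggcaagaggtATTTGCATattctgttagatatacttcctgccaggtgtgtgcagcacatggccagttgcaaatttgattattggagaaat

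The capitals mark a RUNX match in the first run, a STAT and a PU.1-IRF match in the second, 2 AP-1 matches with a PU.1 and a STAT match in the Dusp10 window, and an E-box in each of the windows at Eef2kmt-Rbfox1, Sel1l-Flrt2 and Lrrn1-Setmar. The Lpin1 window held the octamer bound by Oct factors in B cells, on the minus strand, and the Myc window held none of the searched letters. Across all 265 windows of this length, PU.1 (GAGGAAGT) was found in 12.5%, against 5.83% of the windows of all peaks. IRF (GAAANNGAA) was found in 17.4% against 10.6%, the octamer (ATGCAAAT) in 7.17% against 4.17%, PU.1-IRF (GGAANTGAA) in 7.92% against 4.93%, RUNX (TGTGGTTT) in 4.53% against 2.75% and AP-1 (TGANTCA) in 11.3% against 8.93%. In the windows of intergenic peaks 5 to 100 kb from a TSS these shares lay between those of the desert peaks and of all peaks, at 7.15% for PU.1, 12.5% for IRF, 4.95% for the octamer, 5.40% for PU.1-IRF, 3.39% for RUNX and 10.8% for AP-1. Lower shares were found for CTCF (CCACNAGNG), at 3.02% against 6.88%, and for EBF1 (TCCCNNGGG), at 3.77% against 6.41%. E-box (CAGCTG) stood at 16.2% against 17.2%, STAT (TTCNNNGAA) at 7.92% against 8.23% and NF-kB (GGGANTTTC) at 1.13% against 1.18%. Matches of different motifs may overlap. PU.1 and IRF factors act in B cells and in myeloid cells, whereas CTCF binds at the borders of chromatin domains. The desert peaks were also poorer in G and C, with a median of 43.9% against 48.2%, and its part in these shares was not tested.

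Accessibility at the desert peaks was low for their number of bases but far from absent. The median was 3.15 CPM per kb of peak, against 3.74 for intergenic peaks 5 to 100 kb from a TSS, 3.61 for peaks in gene bodies over 5 kb from a TSS and 8.49 for peaks within 5 kb of a TSS. The mean count per library ran from 2.41 to 2086 with a median of 39.1, against 85.5 over all peaks, and 12 peaks were under a mean of 10. With fewer fragments came a wider spread between mice: the median biological coefficient of variation was 0.130, against 0.0946 over all peaks. Desert peaks were also more isolated. The next peak was over 100 kb away for 18.9% of them, against 1.21% of all peaks, and within 10 kb for 50.9% against 76.9%. Accessibility differed little with distance inside the deserts, where the median CPM per kb was 3.28 for the 113 peaks nearest to a TSS and 3.08 for the 35 peaks beyond 200 kb.

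**Figure D1:**
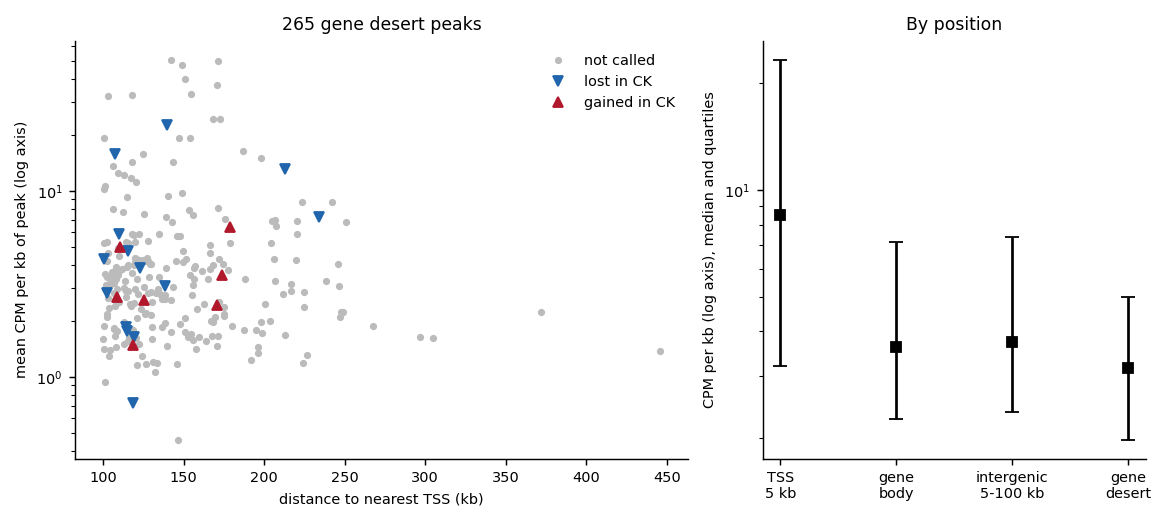
Left, mean accessibility over the 17 libraries (CPM per kb of peak, log axis) of each of the 265 gene desert peaks against its distance to the nearest annotated TSS (kb), with triangles for the peaks lost (down) or gained (up) in CK against WT. Right, median and quartiles of the same level (log axis) by class of peak: the gene desert median of 3.15 was the lowest and the median of 8.49 within 5 kb of a TSS the highest.

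None of the 6 desert peaks most accessible per kb was called in any comparison of genotypes. In CK against WT 3.54% of all peaks were gained and 3.3% lost, so the lack of calls among 6 peaks is not read as a result. The highest, chr4:47746141-47747368 between Sec61b and Nr4a3, an orphan nuclear receptor gene, had 50.8 CPM per kb. It had 66.9, 69.7, 63.8 and 67.1 CPM in the WT mice, 59.8, 63.3, 66.5 and 63.2 in C mice, 58.2, 55.1, 65.1 and 61.3 in K, and 61.9, 59.7, 61.3, 59.8 and 57.0 in CK. Every CK mouse lay below every WT mouse, but the log2 fold change was -0.16 (adjusted p = 0.026 in edgeR's quasi-likelihood test) and the peak was not called. Next came chr16:5495701-5496994 with 49.9 CPM per kb and chr16:5473301-5474505 with 47.5, both between Eef2kmt and Rbfox1. The Lpin1 peak, chr12:16383203-16385851, held the most fragments, a mean of 114 ± 6.93 CPM in WT, 105 ± 5.16 in C mice, 108 ± 5.86 in K and 100 ± 9.57 in CK (SD, n = 4, 4, 4 and 5), and its neighbor chr12:16387085-16387568 had 33.1 CPM per kb. The remaining one of the 6, chr8:115413797-115414647 between Wwox and Maf, a bZIP factor gene, had 37.1 CPM per kb. The lowest adjusted p among these 6 peaks in the 6 comparisons of genotypes was the 0.026 of the highest peak.

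The 4 peaks farthest from any annotated TSS had 1.38, 2.22, 1.62 and 1.64 CPM per kb, below the desert median of 3.15. Their mean counts were 16.9, 58.5, 57.7 and 38, around the desert median of 39.1. None was called, which is not read as a result for so few peaks. The extreme was chr6:9726408-9727031, 445823 bp from the nearest TSS, of which 75.5% is repeat-masked, with 1.06, 0.940, 0.984 and 0.720 CPM in WT and 0.837, 1.02, 0.805, 0.797 and 0.634 in CK. It was followed by chr10:55728706-55730047 at 371956 bp, chr2:123579093-123580899 at 305169 bp and chr3:40120468-40121640 at 296891 bp, with WT means of 2.49, 2.97 and 2.19 CPM. In each of the 4 the CK and WT mice overlapped.

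A peak was called a differentially accessible peak (DAP) when edgeR's quasi-likelihood test gave it a Benjamini-Hochberg adjusted p under 0.01, adjusted over all 65483 peaks. Each mouse gave 1 library, so p-values measure the spread between mice. Peaks with fewer than 10 counts in all would have been removed, and all 265 passed. Gained and lost mean higher and lower in the first-named genotype. The 3 comparisons with WT share the same 4 WT mice, so their results are set side by side and not as separate support.

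Loss of 1 copy of Crebbp alone gave no called desert peak, while 1 was called with a replicate block and 1 under some of the other settings. In C against WT, 0 of 265 peaks were called by edgeR and 0 by DESeq2, against 0.16% of all peaks. At an unadjusted p under 0.05 there were 22 desert peaks (8.3%), 10 gained and 12 lost, against 8.9% of all peaks. The median log2 fold change was -0.04, with quartiles of -0.15 and 0.13, and 145 peaks (54.7%) were below 0, against 50.1% of all peaks. With the replicate number as a block, the peak chr6:107770897-107772260 between Lrrn1 and Setmar was called as gained (log2 fold change 3.37, adjusted p = 0.00388 by edgeR), 1 desert peak (0.377%) against 0.122% of all peaks.

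With loss of 1 copy of Kmt2d most desert peaks had a fold change below 0, which is given as a description, since no test of the set was made. In K against WT the median log2 fold change was -0.13, with quartiles of -0.37 and 0.07, where the median over all peaks was 0.00. Below 0 were 183 peaks (69.1%), against 49.7% of all peaks. Peaks in gene bodies had a median of -0.05, intergenic peaks 5 to 100 kb from a TSS -0.02 and peaks within 5 kb of a TSS 0.03. When the desert peaks were split into 4 sets by GC content the median was below 0 in each, at -0.20, -0.14, -0.10 and -0.14 from the set poorest in GC to the richest. With fold changes centered in bins of GC content over all peaks it was -0.08. Called DAPs were few: 4 peaks (1.51%) were lost, against 0.828% of all peaks, and 0 were gained by edgeR and 0 by DESeq2, against 0.647% of all peaks. At an unadjusted p under 0.05 there were 16 gained desert peaks (6.04%), against 10.2% of all peaks, and 53 lost (20%), against 10.4%. The number of calls rested on single mice, being 1 without K mouse 1 or WT mouse 4 and 2 without K mouse 3 or WT mouse 3.

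The share of all peak fragments that fell in desert peaks was given without a test, as a sum over the desert peaks. It was 0.165, 0.158, 0.166 and 0.165% in the WT mice, 0.155, 0.155, 0.176 and 0.165% in C mice, 0.140, 0.145, 0.164 and 0.160% in K, and 0.154, 0.155, 0.162, 0.15 and 0.147% in CK. K mice 1 and 2 were lowest, K mice 3 and 4 lay inside the WT range, and each mutant genotype overlapped WT. The means were 0.163 ± 0.00388% (SD, n = 4) in WT, 0.162 ± 0.00989% in C mice, 0.152 ± 0.0119% in K and 0.154 ± 0.00575% (n = 5) in CK. The median log2 difference of the 265 peaks from the WT mean divided the K mice in the same way, at -0.20, -0.21, -0.03 and -0.07. K mice 1 and 2 also had a higher share of fragments within 5 kb of a TSS than the other K mice, at 76.4 and 76.1%, where the WT mice had between 73.6 and 75% and the CK mice between 74.8 and 76.2%. The part of this promoter share in the lower desert values was not tested. Mice with and without Y fragments had mean desert shares of 0.161 and 0.165% in WT, 0.155 and 0.170% in C mice, 0.155 and 0.145% in K (1 mouse without) and 0.152 and 0.155% in CK. The part of this difference in the shares was not tested either.

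**Figure D2:**
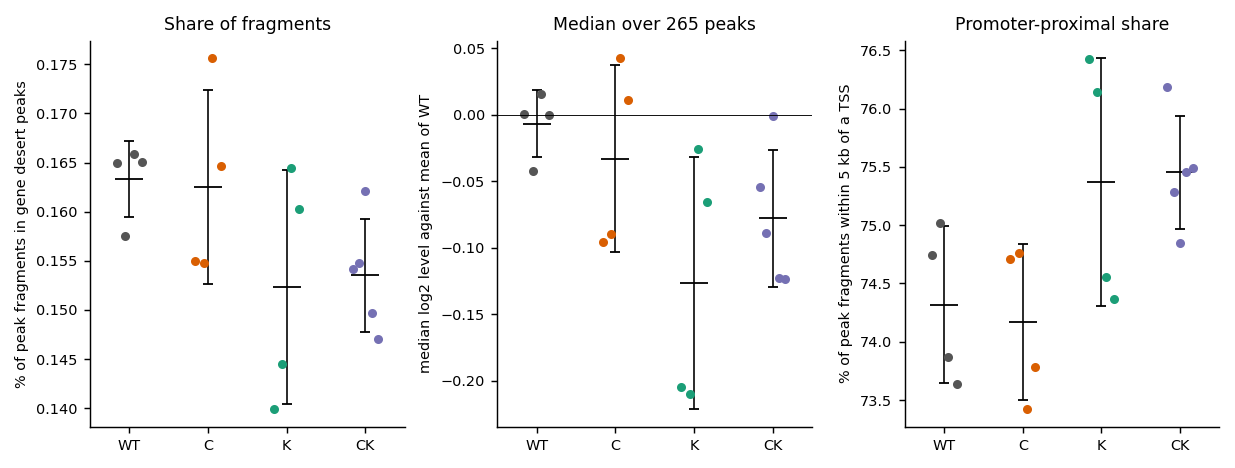
Per mouse (points) with the mean and SD of each genotype (bars): the share of peak fragments in desert peaks (%), the median over the 265 peaks of the log2 level against the WT mean, and the share of peak fragments within 5 kb of a TSS (%), on axes that do not start at 0. K mice 1 and 2 are lowest in the first and middle panels, at 0.140 and 0.145% and at -0.20 and -0.21, and the highest of the K mice in the last, at 76.4 and 76.1%.

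Combined loss gave most of the called desert peaks. In CK against WT, 14 peaks (5.28%) were lost, against 3.3% of all peaks, and 7 (2.64%) were gained, against 3.54% of all peaks. The median log2 fold change was -0.07, with quartiles of -0.29 and 0.15, and 152 peaks (57.4%) were below 0 against 49.4% of all peaks. Peaks in gene bodies had a median of -0.05, intergenic peaks 5 to 100 kb from a TSS -0.003 and peaks within 5 kb of a TSS 0.03. With GC-bin centering the median was -0.01 and the calls were 7 gained and 8 lost, so the excess of lost over gained calls depended on this step. Every CK mouse lay below every WT mouse at 25 desert peaks (9.43%), against 6.39% of all peaks, and above every WT mouse at 5 (1.89%), against 6.59%. The 21 calls became 8 without WT mouse 4, 9 without WT mouse 3, 11 without WT mouse 2 and 13 without CK mouse 2 or 4. Calls were more frequent where counts were higher, with 13 in the top 89 peaks by count and 4 in each of the lower sets of 88. In simulated counts with a 2-fold change at 200 desert peaks and no change elsewhere 104 were recovered, and with a 1.5-fold change 36 of 200 were. The data held 2320 gained and 2158 lost calls over all peaks. An adjusted p under 0.01 was therefore reached at a higher unadjusted p than in the simulation, which may understate recovery in the data. Of the 21 calls, 12 had a fold above 1.5. How often smaller changes were missed was not measured.

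**Figure D3:**
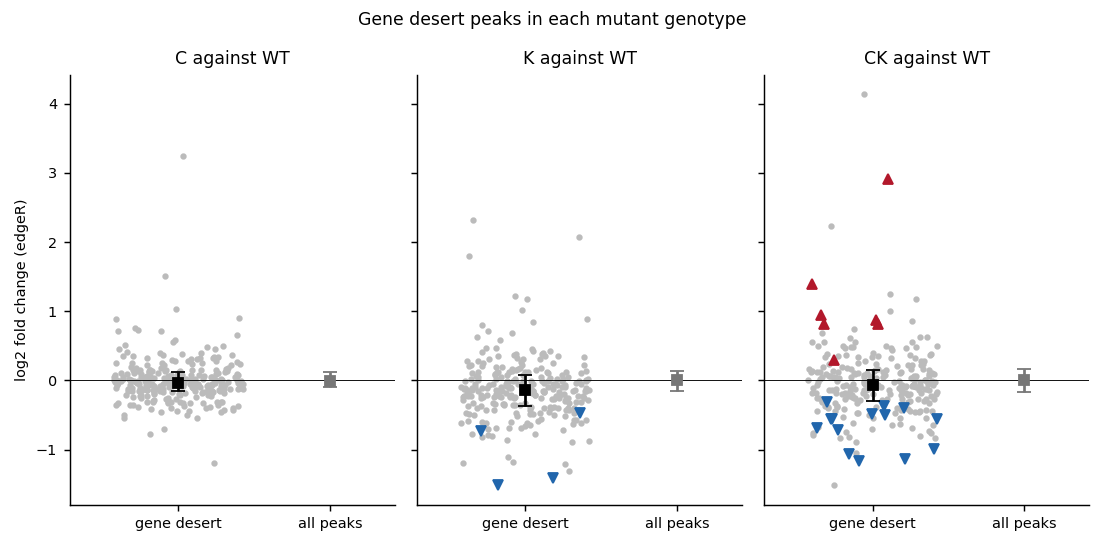
Log2 fold changes from edgeR of the 265 gene desert peaks (points) in C, K and CK against WT, with squares and bars for the median and quartiles of the desert peaks and of all peaks, and triangles for called peaks (down lost, up gained). The desert median was -0.04 in C mice, -0.13 in K and -0.07 in CK, and the uppermost CK point, at 4.14, had a mean count of 2.41.

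Direct comparisons among the mutants called few desert peaks. In CK against K, 0 desert peaks were called by edgeR and 0 by DESeq2, against 0.00916% of all peaks, and 35 (13.2%) passed an unadjusted p under 0.05, against 7.35% of all peaks. Of these 35, 25 were higher in CK and 10 lower, and the median log2 fold change over the 265 peaks was 0.05. In CK against C, 2 peaks (0.755%) were lost, against 0.77% of all peaks, and 0 were gained by edgeR and 0 by DESeq2, against 0.907% of all peaks. At an unadjusted p under 0.05 there were 14 gained (5.28%), against 11.1% of all peaks, and 32 lost (12.1%), against 10.1%. The 2 calls became 0 without C mouse 3 or 4 and 1 without C mouse 1 or 2 or CK mouse 1 or 4. In K against C, 1 peak (0.377%) was called, lost in K, against 0.788% of all peaks. No desert peak was called without any of K mice 1, 2 and 4 and C mice 1, 2 and 3, whereas 3 were called without WT mouse 4 or CK mouse 3 and 2 without any other CK mouse.

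The lost peak with the lowest adjusted p was chr9:51506921-51508591, 171011 bp from the next peak. It lay between 1810046K07Rik, 178004 bp away, and Arhgap20, 256746 bp away. The WT mice had 4.10, 4.49, 3.61 and 4.60 CPM, the C mice 3.07, 3.38, 4.45 and 3.56, the K mice 2.55, 2.61, 2.83 and 4.06, and the CK mice 1.62, 1.94, 1.28, 1.59 and 3.00. All CK mice were below all WT and all C mice, and C and K overlapped WT. In CK against WT the log2 fold change was -1.17 (SE 0.19, adjusted p = 0.000201), against -0.22 in C and -0.46 in K. It was also 1 of the 2 peaks lost in CK against C, at -0.95 (SE 0.19, adjusted p = 0.00441). Under 27 other settings, each left-out mouse among them, its adjusted p against WT reached no more than 0.00135. The call against C was lost without CK mouse 1, 3 or 4 or C mouse 2, 3 or 4, with an adjusted p of at most 0.0216.

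In the desert downstream of Myc, the proto-oncogene that drives growth and cell-cycle re-entry of selected GC B cells, 7 peaks lay between 405687 and 477737 bp from the Myc TSS. All 7 were below 0 in CK, with a median log2 fold change of -0.32, and 5 of 7 were below 0 in each of C and K, with medians of -0.12 and -0.16. The most accessible of them per kb, chr15:62456991-62458296, was called. It had 8.30, 8.88, 10.9 and 11.4 CPM in WT, 6.80, 5.95, 8.80 and 9.56 in C mice, 5.84, 7.36, 7.69 and 8.90 in K, and 6.20, 5.12, 6.29, 6.28 and 6.22 in CK. The CK mice were tightly grouped below all WT mice, while C and K each reached up into the WT range. The log2 fold change in CK was -0.71 (SE 0.14, adjusted p = 0.00102), and it was called under each of 26 other settings, with an adjusted p of at most 0.00746. Kmt2d lies on the same chromosome, 36.4 Mb away.

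The other peak lost in CK against C was chr16:5537098-5538406 in the desert between Eef2kmt and Rbfox1, an RNA splicing factor gene, 281115 bp from Eef2kmt and 1.32 Mb from Crebbp itself. Accessibility was 19, 18.4, 18.8 and 19.5 CPM in WT, 19.4, 17.1, 18.9 and 19.8 in C mice, 17.5, 15.4, 16.8 and 16.4 in K, and 15.6, 13.6, 15.3, 14.6 and 14.3 in CK. C overlapped WT, K lay below all WT mice, and CK was lower still with 1 K mouse inside its range. The log2 fold change was -0.37 (SE 0.07, adjusted p = 0.000801) in CK against WT, -0.35 (adjusted p = 0.00359) in CK against C and -0.20 (adjusted p = 0.111) in K against WT. The call against WT was kept under all 26 other settings, and that against C was lost without C mouse 1, 3 or 4, with an adjusted p of at most 0.0197.

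Of the 4 peaks lost in K, chr7:56627161-56629353 changed most. It lay in the interval between Oca2, a melanosome transporter gene, and Gabrg3, a GABA-A receptor subunit gene. The WT mice had 5.37, 5.59, 5.90 and 5.98 CPM, the C mice 4.96, 3.92, 4.55 and 2.65, the K mice 2.18, 3.00, 1.2 and 1.71, and the CK mice 3.89, 2.37, 4.45, 1.59 and 1.96. WT was above every mutant mouse of all 3 genotypes, and K and CK overlapped. The log2 fold change was -1.51 (SE 0.25, adjusted p = 0.00141) in K, -0.99 (adjusted p = 0.00416) in CK and -0.50 (adjusted p = 0.522) in C. The K call held under all 27 other settings, and the CK call was lost with GC-bin centering and without CK mouse 2 or 4 or WT mouse 2, 3 or 4. The other peak of the interval, chr7:56590554-56591935, had -1.20 in K (adjusted p = 0.027) and was not called.

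The strongest of the K losses by level was chr5:68734744-68735982 between Grxcr1 and Kctd8, with no other peak for 721657 bp. It had 30.1, 30.3, 35.5 and 36.4 CPM in WT, 26.1, 27.7, 34.1 and 35.0 in C mice, 22.4, 24.9, 24.4 and 23.3 in K, and 26.4, 23.4, 27.5, 24.3 and 23.6 in CK. Every K and every CK mouse was under the lowest WT mouse, and C spanned the range between. The log2 fold change was -0.48 (SE 0.09, adjusted p = 0.00267) in K and -0.40 (adjusted p = 0.00179) in CK. The adjusted p reached 0.0150 in K and 0.0128 in CK without WT mouse 4, and the calls were also lost without WT mouse 3 and, in K, without K mouse 1.

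The 2 remaining K losses were less firm. At chr19:9707595-9709013, of which 90.1% is repeat-masked, the WT mice had 7.08, 6.53, 7.03 and 9.69 CPM and the K mice 4.56, 4.87, 4.29 and 4.57, with a log2 fold change of -0.73 (adjusted p = 0.00332) in K and -0.50 (adjusted p = 0.00951) in CK. At chr5:10414052-10414291, a 240 bp peak among predicted genes, the WT mice had 1.01, 1.1, 1.87 and 1.22 CPM, the C mice 1.13, 1.53, 1.21 and 1.59, and the K mice 0.478, 0.453, 0.471 and 0.554. It was the single call of K against C (log2 fold change -1.46, adjusted p = 0.00728), with -1.41 (adjusted p = 0.00677) in K and -1.06 (adjusted p = 0.00794) in CK against WT, and its mean count was 18.4. K and WT did not overlap at either peak. Both K calls were lost with GC-bin centering and without K mouse 1 or 3 or WT mouse 4, and that of the shorter peak also without K mouse 2 or 4 or WT mouse 2 or 3, with an adjusted p of at most 0.0192 and 0.0397. The CK calls of these peaks were lost under 18 of 27 and 9 of 26 settings, with an adjusted p of at most 0.0732 and 0.059.

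**Figure D4:**
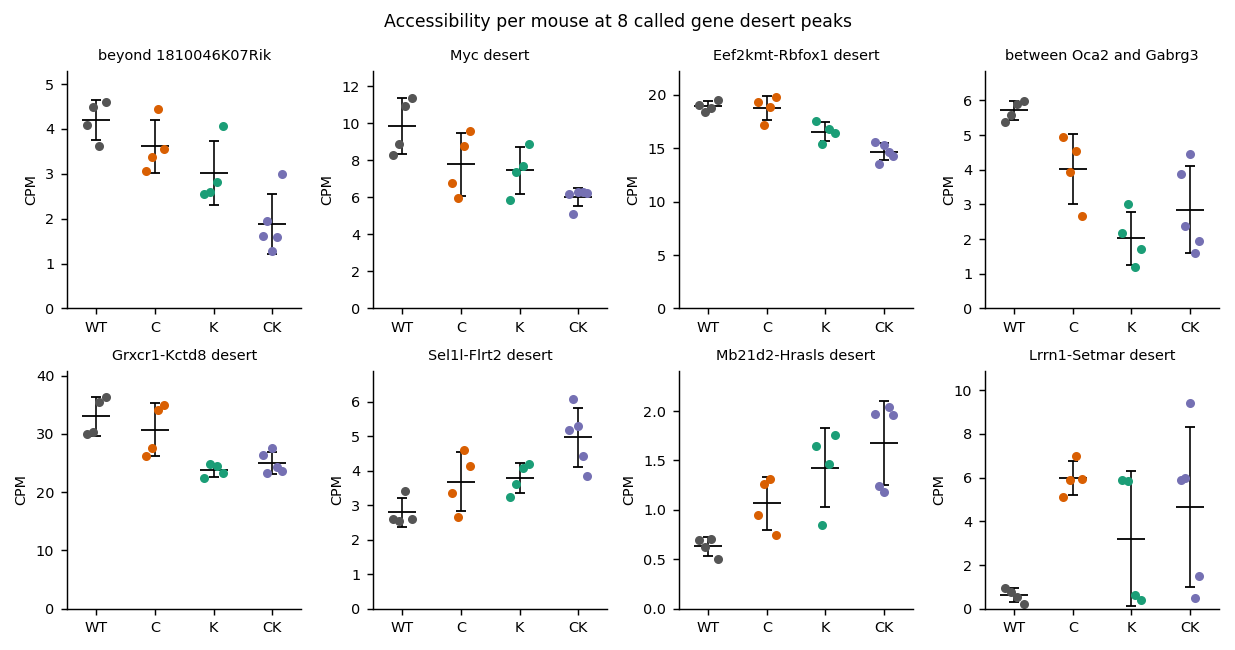
CPM in each of the 17 mice (points) at 8 desert peaks called in CK against WT, with the mean and SD of each genotype (bars), each panel on its own axis from 0. The 5 lost peaks come first, with every CK mouse below every WT mouse, and at the Lrrn1-Setmar peak K and CK each split into low and high mice.

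Other lost peaks had Rybp, Tle4, Dusp10 and Trps1 as nearest coding genes. The peak chr6:100389987-100391036, 102502 bp from Rybp, a subunit of variant Polycomb repressive complex 1, had 3.09, 3.34, 4.26 and 4.15 CPM in WT and 2.31, 1.83, 2.46, 2.59 and 2.3 in CK (log2 fold change -0.69, adjusted p = 0.00292). The peak chr19:14360189-14361134 lay 234405 bp from the TSS of Tle4, a Groucho-family corepressor gene. There the WT mice had 7.02, 8.15, 6.98 and 9.52 CPM and the CK mice 5.07, 5.28, 6.29, 5.63 and 5.99 (-0.48, adjusted p = 0.00345). The peak chr1:184173124-184174689 lay 138743 bp from the TSS of Dusp10, a phosphatase gene for p38 and JNK kinases. It had 5.53, 5.48, 6.89 and 5.76 CPM in WT and 3.74, 4.15, 4.07, 3.93 and 4.38 in CK (-0.55, adjusted p = 0.00448). CK and WT did not overlap at any of these 3 peaks. Trps1, a GATA-type repressor gene, had a lost peak 423612 bp from its TSS, chr15:50401893-50403909. This peak had a WT mean of 4.33 ± 0.229 CPM and a CK mean of 2.94 ± 0.503 (-0.56, adjusted p = 0.00584). All 4 calls were lost without WT mouse 4 and all but that at Tle4 without WT mouse 3, with an adjusted p of at most 0.0287 over the settings tried. The call at Dusp10 was also lost without CK mouse 1 or 4, that at Tle4 without CK mouse 1 or WT mouse 2, and that at Trps1 without CK mouse 2, 3 or 4 or WT mouse 2 and with GC-bin centering. The calls at Tle4 and Trps1 were also lost when only the WT and CK mice were fitted.

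The last lost peaks were of different size. At chr6:109000773-109002302, 148382 bp from the TSS of Edem1, the WT mice had 2.23, 2.09, 1.69 and 1.22 CPM, the C mice 0.802, 1.04, 0.708 and 0.584, the K mice 0.955, 0.850, 1.36 and 1.29, and the CK mice 0.886, 0.646, 0.852, 0.897 and 0.807. C and CK were both below all WT mice and overlapped each other, with log2 fold changes of -1.19 (adjusted p = 0.012) and -1.14 (adjusted p = 0.000915), and the CK call was kept under all 26 other settings. At chr4:74796613-74798837, between Kdm4c and Dmac1, the fall was -0.30 (adjusted p = 0.0097) from a WT mean of 39.3 CPM, and the call was lost under 15 of 27 other settings, 11 of them a left-out mouse, with an adjusted p of at most 0.0436.

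Gained peaks were fewer than lost ones. They lay on chromosome 12 (4 peaks), which holds the Cre allele, chromosome 16 (2 peaks), which holds Crebbp, and chromosome 6 (1 peak). Of the 4 on chromosome 12, 3 lay in 1 desert, between Sel1l and Flrt2. Chromosomes 12 and 16 each held 15 desert peaks (5.66%), and their share of the gained calls over all peaks was not measured. With the peaks of chromosomes 12, 15 and 16 left out, 1 gained and 11 lost peaks were called. The part of these alleles in the gained calls was not tested. Of the 7, 3 lay within 3724 bp of the next peak and 4 lay between 138733 and 424551 bp from it. The median distance to the next peak was 138733 bp for the 7 gained peaks and 13680.5 bp for the 14 lost ones, against 9810 bp for all desert peaks. Over the gained peaks the median log2 fold change was 0.38 in C mice, 0.47 in K and 0.88 in CK, and over the lost peaks it was -0.13, -0.43 and -0.56. The CK values chose the peaks and the comparisons share the WT mice, so these medians are a description.

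The gained peaks of one desert, between Sel1l, which acts in the degradation of misfolded endoplasmic reticulum proteins, and Flrt2, a cell adhesion gene, lay close together on chromosome 12. The peak chr12:92822884-92823978 had 2.61, 2.56, 3.42 and 2.60 CPM in WT, 3.35, 2.66, 4.60 and 4.14 in C mice, 3.24, 3.62, 4.08 and 4.2 in K, and 5.17, 6.08, 5.30, 4.43 and 3.86 in CK. All CK mice were above all WT mice, and C and K overlapped both. The log2 fold change in CK was 0.82 (SE 0.16, adjusted p = 0.000993), and the call was kept under all 26 other settings. Its neighbor chr12:92818676-92819160, 3724 bp away, had 0.88 (adjusted p = 0.00365), which was lost without CK mouse 2 or WT mouse 1, 2 or 4. The broad peak chr12:92883643-92887377, at 3735 bp the longest of all desert peaks, had a WT mean of 16.9 ± 1.22 CPM and a CK mean of 20.6 ± 1.47 (0.29, adjusted p = 0.00985), a call that was lost under 18 of 26 settings, 15 of them a left-out mouse, with an adjusted p of at most 0.0453. The Cre allele sits on the same chromosome, between 20.4 and 35.3 Mb from the 4 gained chromosome 12 peaks.

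Outside that cluster, chr16:29083985-29084456, 125239 bp from Hrasls, had 0.692, 0.627, 0.703 and 0.498 CPM in WT, 0.944, 1.26, 1.31 and 0.743 in C mice, 1.65, 0.850, 1.47 and 1.75 in K, and 1.97, 1.24, 1.18, 2.04 and 1.96 in CK. No WT mouse overlapped any mutant mouse. The log2 fold change was 1.40 (SE 0.26, adjusted p = 0.000688) in CK, 1.18 (adjusted p = 0.0126) in K and 0.75 (adjusted p = 0.395) in C, and the CK call was kept under all 25 other settings. Less firm were chr16:39327537-39328339 between Igsf11 and Lsamp (0.94, adjusted p = 0.00948), a call lost under 15 of 25 settings with an adjusted p of at most 0.0292, and chr12:77993753-77994646 between Fut8 and Gm6657 (0.82, adjusted p = 0.00667), a call lost under 7 of 25 with an adjusted p of at most 0.0379. Crebbp lies on chromosome 16, 24.9 Mb from the Hrasls peak and 35.1 Mb from that between Igsf11 and Lsamp.

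The remaining gained peak, chr6:107770897-107772260 between Lrrn1 and Setmar, did not follow genotype within K and CK. It had 0.958, 0.783, 0.516 and 0.221 CPM in WT, 5.10, 5.86, 6.98 and 5.95 in C mice, 5.89, 5.83, 0.628 and 0.415 in K, and 5.91, 5.98, 9.42, 0.498 and 1.5 in CK. K and CK each held mice at the WT level and mice at the C level, with little between. The fitted log2 fold change was 2.91 (SE 0.71, adjusted p = 0.00684) in CK and 3.25 (adjusted p = 0.0378) in C, and the CK call was lost without CK mouse 1, 2 or 3 or any WT mouse. A wide spread between mice of 1 genotype was seen at a larger share of desert peaks: among peaks with a mean count of at least 20, 7 of 206 desert peaks (3.40%) differed over 4-fold within a genotype, against 301 of 54816 autosomal peaks (0.549%). Desert peaks had fewer fragments and the sets were not matched by count, so the part of counting noise in this was not tested. Another desert peak with such a spread was chr12:16434143-16435355, where K mouse 2 had 17 CPM and the other K mice 1.27, 1.47 and 2.40. At chr2:53850586-53851442, between Arl6ip6 and Rprm, the K mice had 1.70, 1.53, 2.04 and 1.85 CPM, the C mice 4.58, 4.15, 4.60 and 5.10, and the CK mice 3.10, 4.68, 6.48, 1.54 and 1.5. All K mice there were below all WT mice, which had 5.80, 4.80, 3.37 and 3.71, but the K fold change of -1.30 was not called (adjusted p = 0.016).

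Desert peaks near a list of 54 regulators of GC and B cells were examined by gene. Only 6 of the 54 were the nearest coding gene of any desert peak, and they took 28 peaks. Of these 28, 1 was lost in CK, that at Myc, where 5.28% of desert peaks and 3.3% of all peaks were lost. A single call among 28 is near these shares and is not read as a result about the regulators. The median log2 fold change of the 28 was 0.02 in C mice, -0.08 in K and -0.06 in CK, against -0.04, -0.13 and -0.07 over all desert peaks. Mef2c, a MADS-box factor active in GC B cells, had 6 peaks, all 6 below 0 in K with a median of -0.38. Its most accessible peak, chr13:82915228-82915612, had 1.49, 2.09, 2.72 and 2.44 CPM in WT and 1.17, 1.70, 1.57 and 1.80 in K, which overlapped. Tox had 10 peaks, of which 2 were below 0 in CK and 3 in K, with medians of 0.09 and 0.12. The most accessible Tox peak, chr4:7404884-7406488, had a mean of 29.6 ± 1.77 CPM in WT, 30.0 ± 1.40 in C mice, 32.0 ± 1.53 in K and 31.7 ± 2.40 in CK. Zeb2 had 3 peaks, and Bcl11a and the B-lineage factor Ebf1 had 1 each, the last with a mean count of only 4.06.

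Enhancers often stand in clusters, so desert peaks within 12.5 kb of each other were joined. This gave 174 groups, of which 128 were single peaks, 23 were pairs and 23 held 3 or more, for 91 peaks. The 6 groups of at least 5 peaks were summed in each mouse, without a test. That near Nrp1 and Itgb1, chr8:128505965-128525633, had 14.3 ± 1.30 CPM in WT, 13.5 ± 1.35 in C mice, 12.5 ± 1.36 in K and 10.4 ± 0.648 in CK, and the WT mice, from 12.4 to 15.4, did not overlap the CK mice, from 9.37 to 11.1. It held 1 called peak, chr8:128516949-128518227, which lay 13586 bp from the Nrp1 gene body and 157552 bp from the Nrp1 TSS. The called peak had 7.61, 5.69, 7.17 and 7.70 CPM in WT and 5.22, 3.66, 4.83, 5.38 and 4.78 in CK (log2 fold change -0.56, adjusted p = 0.00496). That call was lost with GC-bin centering and without CK mouse 2 or WT mouse 1, 3 or 4, where it reached 0.0243. Of the 13 desert peaks whose nearest coding gene was Nrp1, 10 were below 0 in CK and 11 in K, with medians of -0.29 and -0.26.

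The other 5 large groups held 0 called peaks by edgeR in any genotype against WT. Over all peaks 3.54% were gained and 3.3% lost in CK against WT, so the lack of calls in so few peaks is not read as a result. The most accessible, chr16:5467780-5496994 between Eef2kmt and Rbfox1, had 148 ± 8.25 CPM in WT and 139 ± 5.11 in CK, with 149 in C and 147 in K. The group chr13:82893222-82915612 in the Mef2c desert had 8.51 ± 1.40 CPM in WT, 7.41 in C mice, 6.15 ± 0.990 in K and 6.93 ± 0.661 in CK, and no K mouse, up to 7.06, reached the lowest WT mouse at 7.34. Between Mpdz and Nfib, chr4:82173207-82199529 had 24.5 in WT, 24.2 in C mice, 21.5 in K and 22.9 in CK, and all 6 of its peaks were below 0 in both K and CK. Between Chd7 and Clvs1, chr4:9065381-9107771 had 32.3 in WT, 34.4 in C mice, 33.2 in K and 35.6 in CK, with 0 of 6 peaks below 0 in CK. The group between Wwox and Maf had 56.5 ± 2.82 in WT and 54.0 ± 5.00 in CK.

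**Figure D5:**
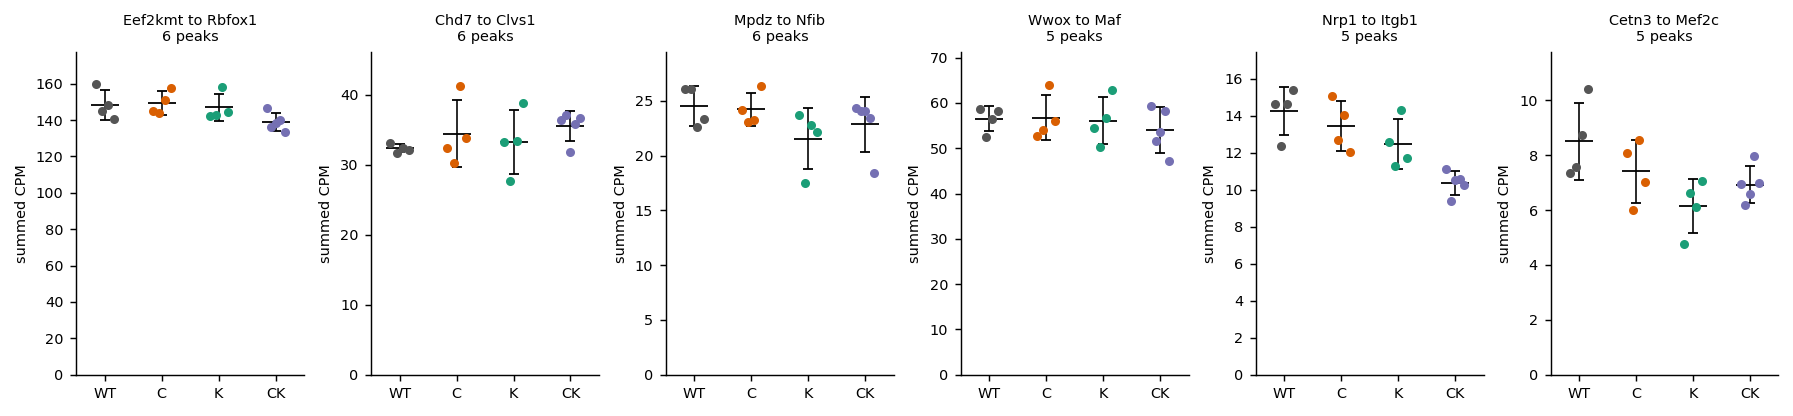
Summed CPM per mouse (points) in the 6 joined groups of at least 5 desert peaks, with the mean and SD of each genotype (bars), each panel on its own axis from 0. In the group from Nrp1 to Itgb1 all CK mice lie below all WT mice, and in that from Cetn3 to Mef2c all K mice do.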

How the data were processed

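ATAC-seq libraries of sorted GC B cells from 17 mice were analysed, and the 7 sorted CB and CC samples were not analysed here. The authors ran the nf-core pipeline for ATAC-seq against mm10 to get consensus peaks, and deposited for each library the raw featureCounts 2.0.1 fragment count of each peak. A fragment could count in each peak that it covered by a fraction of at least 0.2 of its length, so nearby peaks may share fragments. The 17 library columns were used and 0 were left out. Peak coordinates are given as in the deposited table.

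Peaks were placed with GENCODE M21 on GRCm38, on autosomes only (4 peaks on X met the distance rule and were not used). Counts were scaled with TMM factors in edgeR 4.0.16 (R 4.3.3) and all 17 libraries fitted with 1 coefficient per genotype. Contrasts were tested over 65483 peaks by edgeR's quasi-likelihood F test and called at a Benjamini-Hochberg adjusted p under 0.01. CPM are TMM-scaled fragments per 1000000 peak fragments, and the per-mouse log2 levels used a pseudocount of 0.5. The script was tested on simulated data. Depth ran from 17483706 to 21857738 fragments.

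Peaks named were, for each genotype against WT, up to 6 lost and 6 gained desert peaks of lowest adjusted p, the calls of CK against K and C, the 6 most accessible per kb, the 4 farthest from a TSS, the top peaks of 54 listed regulators, and the largest joined groups (4 were planned, and a tie at 5 peaks gave 6). The other called peaks and those with over 4-fold spread were named after their values were seen. The rule for desert peaks, the lists and the tests were chosen with earlier results of these data known. Alternatives were DESeq2 1.42.0, other scalings, GC-bin centering in 20 bins, a count filter, a replicate block, a Y covariate, other thresholds, and leaving out each mouse. Deviations from the genotype means correlated in all 4 same-numbered pairs of WT and C mice (0.14 to 0.25), though the pair numbered 2 did not correlate best with its own number. In WT and C, mice 1 and 2 carried Y fragments and mice 3 and 4 did not, and the part of this in the correlations was not tested. Pairing is thus only a hint from the data and not from the labels, and the blocked value is given beside C against WT.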

Additional observations from a re-analysis of the deposited data

Results flagged for a closer look

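A mouse was singled out where its gap to the nearest mouse of its genotype exceeded Dixon's 95% critical share of the genotype's range. There were 11 such cases in 196 groups of mice (5.61%), and chance alone gives about 1 in 20. At the Lpin1 peak chr12:16383203-16385851 the highest WT mouse had 124 CPM, with the next at 112, and the lowest K mouse had 98.9, with the next at 110. At its neighbor chr12:16387085-16387568 the highest WT mouse had 22 CPM and the next 16. At the gained peak chr12:92822884-92823978 the highest WT mouse had 3.42 CPM and the next 2.61, and at chr12:92883643-92887377 the lowest WT mouse had 15 and the next 17.3. In the Myc desert the lowest CK mouse had 5.12 CPM at chr15:62456991-62458296 and the next 6.20. At chr12:16434143-16435355 the highest K mouse had 17 CPM and the next 2.40, the widest gap of these. Summed over joined peaks, the highest K mouse had 158 CPM between Eef2kmt and Rbfox1 (next 145), the lowest CK mouse had 31.8 between Chd7 and Clvs1 (next 35.8), and the lowest CK mouse had 18.4 between Mpdz and Nfib (next 23.4). The lowest WT share of fragments in desert peaks was 0.158%, with the next at 0.165%.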

How the results depend on the processing

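The number of called desert peaks was recomputed under 12 other settings per comparison and with each of the 17 mice left out. In C against WT, where none was called, 1 was called as lost with loess offsets and with the Y signal as a covariate, and 1 as gained with only the genotypes compared. At an adjusted p under 0.05 there were 2, 1 gained and 1 lost. In K against WT the 4 calls became 2 with GC-bin offsets, 7 with only the genotypes compared and 14 at an adjusted p under 0.05. In CK against WT the 21 calls became 12 when the peaks of chromosomes 12, 15 and 16, which hold the floxed and Cre alleles, were removed. All 12 were among the 21, so this fall came from removing the called peaks on those chromosomes. The 21 calls became 12 with an added fold above 1.5 and 46 at an adjusted p under 0.05. DESeq2 called 22, of which 20 were among the 21. In CK against C the 2 calls became 4 by DESeq2, 6 with the Y covariate, 1 without those chromosomes, 1 with the fold limit and 11 at an adjusted p under 0.05. In K against C the 1 call became 3 by DESeq2, 0 with GC-bin offsets, 4 with only the genotypes compared and 11 at an adjusted p under 0.05. In CK against K there were 0 calls under each setting. Leaving out 1 mouse gave 0 to 1 calls for C, 1 to 5 for K and 8 to 21 for CK against WT, 0 to 0 in CK against K, 0 to 3 in CK against C and 0 to 3 in K against C. In C against WT the 1 call came without CK mouse 4, as gained, or without WT mouse 4, as lost.

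The 4 same-numbered pairs of WT and C mice all had a correlation of deviations above 0.1, and in no other pair of genotypes did every pair. Of all 24 same-numbered pairs 13 were above 0.1 (range -0.08 to 0.25), and 11 correlated best with their own number. With the replicate block there was 1 call for C, 7 for K and 28 for CK against WT, 5 in CK against C, 8 in K against C and 0 in CK against K.

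The median log2 fold change in C against WT turned to 0.0033 without C mouse 1 (range over left-out mice -0.066 to 0.0033), and the K and CK medians stayed below 0 in each run. With deserts set by protein-coding genes alone (2939 peaks) the mean share of fragments was 3.19% in WT, 3.06% in C mice, 2.96% in K and 3.01% in CK, and for peaks over 200 kb from a TSS 0.0152, 0.0155, 0.0142 and 0.0147%. Leaving out a mouse gave 0.163 to 0.165% in WT, 0.158 to 0.165% in C mice, 0.148 to 0.156% in K and 0.151 to 0.155% in CK. For the 28 named fold changes called in the report, 580 of 737 re-evaluations kept the call, 157 lost it and 0 changed sign, and 7 of the 28 were kept in all. The median desert peak had a mean of 39.1 fragments per library, against 85.5 for all peaks.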
